A study of Mus musculus with 5 samples.

Results

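Pcgf6 is a Polycomb group protein that defines the variant Polycomb repressive complex PRC1.6. In this complex the E-box-binding pair Mga and Max and the pair E2f6 and Dp1 contact DNA, L3mbtl2 binds histones, and Ring1 or Rnf2 ubiquitylates histone H2A. In mouse embryonic stem cells (ESCs) the complex is best known at the CpG-rich promoters of germ cell genes, and binding far from promoters is less familiar. Here, 43 stretches of 1 kb (tiles) of the mm9 autosomes are described in which both Pcgf6 antibodies gave high read depth although every protein-coding transcription start site (TSS) lay more than 10 kb away. A tile was taken when its mean depth was at least 5 times the autosomal mean of the file in all 4 ChIP files and at most 2 times the autosomal mean in the Input. Of 2472334 autosomal tiles, 1947502 were distal in this sense, and 43 of them met the depth rule (0.00221% of distal tiles). No pair of them was adjacent, so they are 43 separate sites, spread over 16 of the 19 autosomes.

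The cells were CCE mouse ESCs, an established line, grown in 15% serum with 1000 U/ml LIF at passages below 15 and fixed with disuccinimidyl glutarate and paraformaldehyde, with no treatment or genotype to compare. Pcgf6-bound DNA was pulled down with a Santa Cruz antibody (sc-160649) or an Abcam antibody (ab48010), each deposited as 2 files, and 1 Input file gave the chromatin without pull-down. The 2 files of each antibody held largely the same DNA fragments, with 88.0% (Santa Cruz) and 88.1% (Abcam) of the positions of replicate 1 found again in replicate 2. Each antibody is therefore counted as 1 sample, and no SD or test between replicates is given. The files held 2237828 to 2788016 autosomal fragments in ChIP and 22410762 in Input. At this depth the threshold of 5 times the mean was 4.53 fragments of 300 bp per tile in Santa Cruz replicate 1 and 5.64 in Abcam replicate 2, so a distal tile could be reached with few molecules.

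Since the members were chosen by depth, their depth is given as a description. The sequence at the point of highest ChIP depth was not used in the choice, and it divided the tiles. Around this point, the 300 bp of 7 tiles were CpG-rich (GC over 50% and a CpG observed/expected ratio over 0.6, the usual criteria for a CpG island) and those of the other 36 were not. The letters CACGTG (an E-box, as bound by Mga and Max), TTCCCGC (an E2F-like site) and TCACACCT (a T-box element, the kind of site that the second DNA-binding domain of Mga recognises) were searched on both strands.

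The 300 bp of the tile near Tmed11 held 23 CpG dinucleotides at 60.0% GC, those near Cnnm1 22 at 63.7% and those near Kcnrg 20 at 53.3%. As a CpG-poor tile of similar depth within the tile bounds, that near Dspp held 0 CpG at 38.0% GC. The median of the central 300 bp of all distal tiles was 2 CpG at 41.0% GC.

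The tile with the highest ChIP depth lay 10291 bp upstream of Zfp541, which encodes a zinc finger protein of spermatocytes. Its depth was 16.9 and 15.0 times the autosomal mean in the Santa Cruz files, 17.0 and 17.1 times in the Abcam files and 1.62 times in Input. The next tile lay 22964 bp upstream of Mga, the scaffold of PRC1.6 itself. There the depth was 10.8 and 12.1 times the mean with Santa Cruz, 11.9 and 12.01 times with Abcam and 1.84 times in Input. Within both tiles, as the rule took them, the antibodies gave nearly equal depth in all 4 ChIP files. In the 1 kb centred on the highest depth near Mga, given below, Abcam was the higher. These 2 tiles were the only ones at 10 times the mean or more in every ChIP file.

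The third tile, chr5:108116001-108117000, had Rpap2, a phosphatase of RNA polymerase II, as its nearest protein-coding gene by GENCODE at 89000 bp. A RefSeq start of Gfi1 was nearer, 36368 bp from the highest depth of the tile. Its depth was 9.84 and 8.56 times the mean with Santa Cruz, 14.5 and 16.6 times with Abcam and 1.599 times in Input. Here the Abcam files were the higher ones. The tile ended 34 bp short of the start of the long non-coding RNA Gm17717 (minus strand, position 108117034), and its highest depth was 39 bp from that start. The reverse order of antibodies was seen at chr10:25290001-25291000, 128608 bp from Epb4.1l2, a membrane skeleton protein and the nearest gene by GENCODE. A RefSeq start of Smlr1 was nearer, 34645 bp from the highest depth. This tile had 11.0 and 13.2 times the mean with Santa Cruz, 8.30 and 8.04 times with Abcam and 1.28 times in Input. With the replicates joined it held 13 fragments with Santa Cruz and 11 with Abcam, and the Rpap2 tile held 8 and 17. The order of antibodies thus rests on few fragments and was not tested.

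The tile at chr5:104585001-104586000 lay 13731 bp from Dspp, which encodes a protein of dentin. Its values were 8.88 and 7.74 times the mean with Santa Cruz, 9.15 and 7.97 times with Abcam and 1.88 times in Input. The tile at chr5:109204001-109205000 was assigned to Tmed11, a p24 family protein of the secretory pathway, at 19382 bp. It had 10.2 and 10.1 times the mean with Santa Cruz, 7.96 and 7.07 times with Abcam and 1.76 times in Input. A RefSeq start of Rnf212, a meiotic crossover factor, fell inside this tile at position 109204046, 79 bp from the highest depth, whereas the GENCODE start of Rnf212 was 25658 bp from it. By RefSeq this tile is thus a protein-coding promoter and not distal.

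The tile at chr19:43502001-43503000 lay 11926 bp upstream of Cnnm1, a membrane protein of the cyclin M family, with 7.05 and 7.41 times the mean with Santa Cruz, 10.7 and 10.1 times with Abcam and 1.93 times in Input. The tile at chr14:62268001-62269000 was 41682 bp from Kcnrg, a regulator of potassium channels. Its depth was 7.77 and 7.67 times the mean with Santa Cruz, 8.43 and 7.001 times with Abcam and 1.45 times in Input. It lay in the body of the long non-coding RNA Dleu2, a microRNA host gene, with its highest depth 367 bp upstream of the start of a shorter Dleu2 transcript at 62267650. The last 2 of the first 10 were CpG-poor. The tile at chr4:10637001-10638000, 163645 bp from 2610301B20Rik, had 9.62 and 9.998 times the mean with Santa Cruz, 10.2 and 6.71 times with Abcam and only 0.691 times in Input. The tile at chr4:54086001-54087000, 232659 bp from Tmem38b, a cation channel of intracellular membranes, had 6.62 and 6.59 times the mean with Santa Cruz, 8.49 and 9.07 times with Abcam and 1.93 times in Input.

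**Figure D1:**
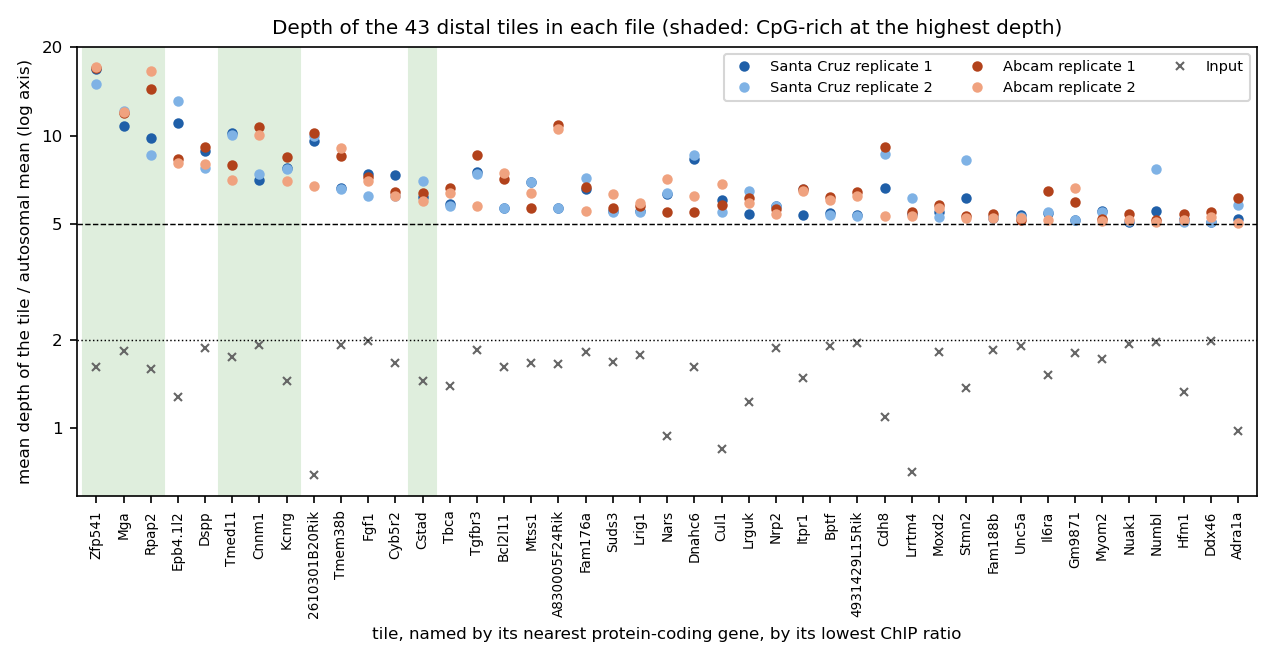
Mean depth of each of the 43 distal tiles divided by the autosomal mean of the file (log axis), for the 4 ChIP files and Input. Tiles are ordered by their lowest ChIP ratio, the dashed line is the ChIP threshold of 5, the dotted line the Input limit of 2, and shading marks the 7 tiles that were CpG-rich at the highest depth. Most tiles sit close above the threshold, and 6 of the 7 shaded tiles are among the first 8.

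Below these tiles the values ran close to the threshold. Only 12 of 43 reached 6 times the mean in every ChIP file, and 24 stayed below 5.5 times in at least 1 file. The last 3 tiles inside the rule were near Hfm1, a meiotic DNA helicase (94941 bp, lowest ratio 5.07), Ddx46, a splicing helicase (18589 bp, 5.06), and Adra1a, an adrenergic receptor (47608 bp, 5.05). The first 3 distal tiles outside it were near Ulk4 (25826 bp, lowest ratio 4.996), Gm12166 (19813 bp, 4.99) and Dock9 (18639 bp, 4.96). The step across the threshold was thus smaller than the worth of 1 fragment. Over the 43 tiles the medians were 5.83 and 6.23 times the mean with Santa Cruz, 6.38 and 6.20 times with Abcam and 1.68 times in Input, against 0.695, 0.681, 0.869, 0.880 and 0.746 times over all distal tiles without N.

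In fragments, a tile held 4 to 14 (median 6) with Santa Cruz, 5 to 19 (median 7) with Abcam and 5 to 19 (median 14) in Input, once the replicates were joined and each position was counted once. Scaled by library totals, the ChIP to Input ratio of the Zfp541 tile was 9.29 with Santa Cruz (exact Clopper-Pearson 95% interval 4.05 to 21.5) from 14 and 13 fragments, and 10.2 with Abcam (4.79 to 22.5) from 19 and 13. The Mga tile gave 6.47 (2.79 to 14.6) and 6.996 (3.28 to 14.9). At the lower end, the tile near Ddx46 gave 2.54 (0.732 to 7.17) and 2.47 (0.797 to 6.56), so its intervals include 1 with both antibodies. Intervals lay above 1 with both antibodies in 24 of 43 tiles. They cover counting error only and stand on values that chose the tiles.

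Each antibody alone passed many more tiles than the pair. With Santa Cruz, 3922 distal tiles reached the threshold in both files (0.201% of distal tiles), and with Abcam 1906 did (0.0979%). Most of them, 3837 and 1835, were below it in both files of the other antibody. Within 10 kb of a protein-coding TSS, 76 tiles met the same depth rule (0.0145% of the 524832 tiles there). These 76 serve as the comparison for sequence below, together with the single-antibody tiles and all distal tiles.

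The CpG content was read at 2 scales. Over the whole 1 kb tile, 0 of 43 distal tiles had GC over 50% and CpG observed/expected over 0.6 (an exact upper limit of 8.22%), against 29 of 76 TSS tiles (38.2%) and 0.115% of all distal tiles. The median CpG observed/expected ratio was 0.261 in the distal tiles, 0.537 in the TSS tiles, and 0.154 in all distal tiles. It was 0.178 in tiles of Santa Cruz alone and 0.187 in those of Abcam alone. Median GC was 44.9% in the 43, 49.7% in the TSS tiles and 41.1% in all distal tiles. In the single-antibody tiles it was 44.2% (Santa Cruz) and 44.6% (Abcam), close to that of the 43. In the 300 bp around the highest depth, a window chosen after the tile values had been seen, 7 of 43 distal tiles were CpG-rich (16.3%). This compares with 39 of 76 TSS tiles (51.3%), 10 of 3837 tiles of Santa Cruz alone (0.261%), 13 of 1835 of Abcam alone (0.708%) and 0.365% of the centres of all distal tiles.

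**Figure D2:**
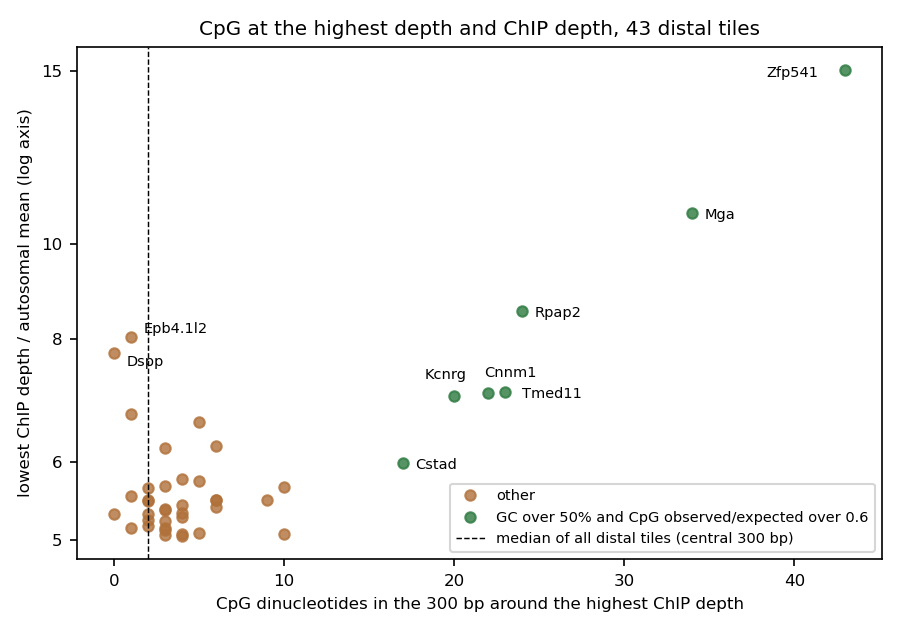
CpG dinucleotides in the 300 bp around the highest ChIP depth (horizontal axis) against the lowest of the 4 ChIP ratios of the tile (vertical log axis) for the 43 distal tiles. The 7 CpG-rich tiles hold 17 to 43 CpG and the other 36 hold 0 to 10, with the dashed line at the median of 2 for all distal tiles.

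The 7 CpG-rich tiles were those near Zfp541, Mga, Rpap2, Tmed11, Cnnm1, Kcnrg and Cstad, the last named after its values were seen. Their stretches held 17 to 43 CpG at 53.3% to 74.7% GC, whereas the other 36 held 0 to 10 (median 3). Among the 12 tiles at 6 times the mean or more, 6 were CpG-rich, against 1 of the 31 tiles below. By GENCODE none of the 7 lay in a protein-coding gene, whereas 18 of the other 36 did. The tile near Tmed11, 1 of the 7, held the RefSeq start of Rnf212 described above. For all 43 the share in a protein-coding gene was 41.9%, against 32.7% of all distal tiles. It was no higher than in the tiles of Santa Cruz alone (43.8%) or Abcam alone (44.6%). The split at 6 times the mean is a description, since the depth chose the tiles. By the lowest ChIP ratio of the tile, those near Epb4.1l2 and Dspp ranked 4 and 5 and held 1 and 0 CpG. These ranks changed with the window. In the 1 kb centred on the highest depth, their lowest ratios were 8.70 (Abcam replicate 2) and 7.68 (Santa Cruz replicate 2). Those near Zfp541, Mga, Rpap2, Tmed11 and Cnnm1 then had lowest ratios of 10.3 to 37.5. So centred, Dspp lay below all 7 CpG-rich tiles, and Epb4.1l2 lay above only those near Kcnrg and Cstad.

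In 6 of the 7 CpG-rich tiles the highest depth lay within 50 bp of the end of the tile. With 1 kb added on either side, the point of highest ChIP depth fell outside the tile in 6 of 43 cases, and 4 of these were the CpG-rich tiles near Zfp541, Mga, Rpap2 and Cnnm1. Near Zfp541, a 1 kb window centred there gave 43.3 and 37.5 times the mean with Santa Cruz. It gave 47.1 and 41.7 times with Abcam and 2.37 times in Input. Its centre was 10174 bp from the TSS and fell in the next tile. Measured from its end, that next tile lay within 10 kb of the TSS, so it was not distal by the rule. Its depth was 31.1 and 26.1 times with Santa Cruz, 36.7 and 31.4 times with Abcam and 2.01 times in Input. The tile that the rule took is thus the outer flank of this peak. Near Mga the centred window gave 21.3 and 23.3 times with Santa Cruz, 30.2 and 33.0 times with Abcam and 3.19 times in Input. In the centred windows of all 7, Santa Cruz replicate 1 ran from 8.09 to 43.3 times and Abcam replicate 1 from 10.9 to 47.1 times, but Input ran from 2.37 to 3.28 times. Every one of the 7 centred windows was therefore over the Input limit of 2. The tile that the rule took had the lower Input in each case, and in 4 of the 7 the highest depth lay outside it, whereas near Tmed11, Kcnrg and Cstad it lay inside. Centring did not raise the depth of every tile. Of the other 36 tiles, 20 still had 5 times the mean in all 4 ChIP files, so that 27 of 43 met the ChIP threshold and 18 of 43 the whole rule in the centred window. Near Ddx46 the centred window had 2.97 and 3.01 times the mean with Santa Cruz, and near Unc5a (named after its values were seen) 1.37 and 2.21 times with Abcam. In 3 of the 36 Input exceeded the limit after centring, and 1 of them, near Stmn2 (named after its values were seen), reached 15.9 times the mean in Input.

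**Figure D3:**
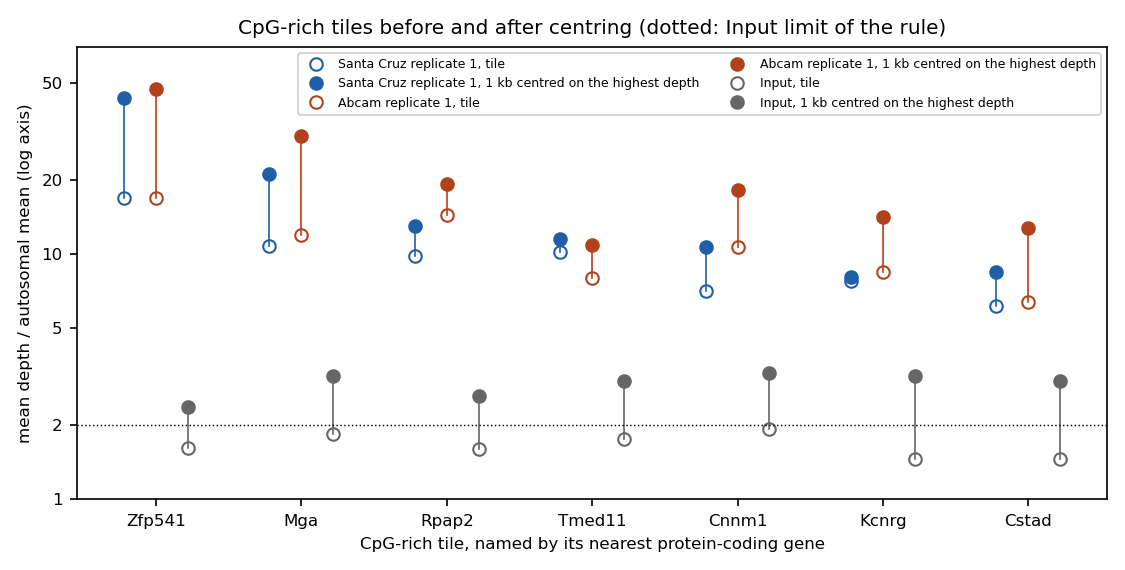
Depth over the autosomal mean (log axis) of the 7 CpG-rich tiles (open circles) and of the 1 kb centred on the highest ChIP depth nearby (filled circles), for replicate 1 of each antibody and Input. All ChIP values are higher after centring, and all Input values cross the dotted limit of 2.

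Of the distal tiles that passed in all ChIP files but had Input above 2, there were 388. At their highest depth, 112 of 388 were CpG-rich (28.9%). Their E-box share over the whole tile was 28.9%, and a long non-coding start fell inside 17 of them. These are tiles and not separate sites, since the 112 formed 100 runs of adjacent tiles and 3 of them lay next to one of the 43.

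The depth profile around the highest point is given as a description, since the tiles were chosen by their depth and are read here at their own maximum. The median depth in the central 100 bp was 17.8 times the mean with Santa Cruz replicate 1 and 34.5 times with Abcam replicate 1 in the 7 CpG-rich tiles. In the other 36 it was 10.8 and 10.9 times. In the 76 TSS tiles it was 17.1 and 16.3 times. Input at the same point was 2.97, 1.86 and 2.41 times the mean. The maximum at the centre is fixed by the alignment on the highest depth, and the ChIP heights come from the values that the rule used.

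**Figure D4:**
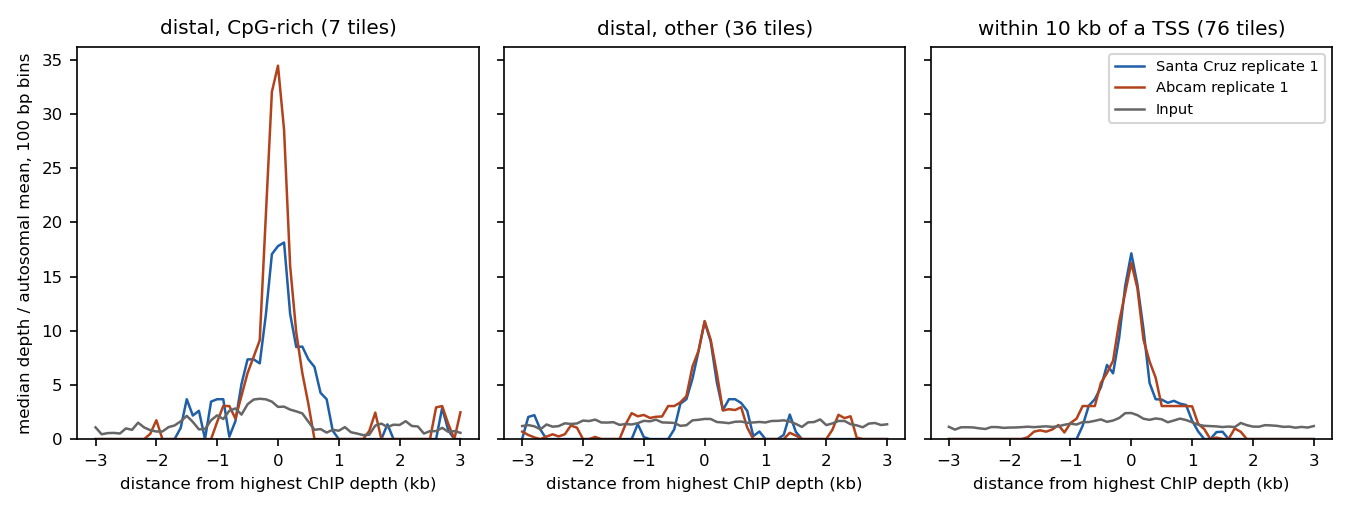
Median depth over the autosomal mean in 100 bp bins against distance from the highest ChIP depth (kb) for the 7 CpG-rich distal tiles, the other 36 distal tiles and the 76 tiles within 10 kb of a TSS. Lines are replicate 1 of each antibody and Input. With Abcam the CpG-rich tiles have the highest centre, and with Santa Cruz their centre is close to that of the TSS tiles. The Input line rises at the centre too.

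Within the tile, the points of highest depth of Santa Cruz and Abcam lay a median of 160 bp apart (range 4 to 886 bp). The distance is a description only, since the points were sought inside tiles that the rule required to be deep with both antibodies. In 7 tiles, 6 of them CpG-rich, the highest summed depth lay within 50 bp of the end of the tile, which draws both points to the same end, so the distances were not compared between groups. In the tile near Cul1, named after its values were seen, the points were 886 bp apart.

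Among the letters searched on both strands, the E-box was the most frequent. An E-box lay in 11 of 43 distal tiles (25.6%, exact 95% interval 13.5% to 41.2%). The share was 30.3% in TSS tiles, 11.7% and 13.4% in tiles of Santa Cruz and Abcam alone, and 8.99% in all distal tiles (11.4% in those with 43% to 48% GC). The letters CACGTG contain a CpG, and the 43 tiles held a median of 13 CpG against 6 in all distal tiles. In the distal tiles with Input above 2 the median was 20 CpG and the E-box share 28.9%. A share matched for CpG content was not computed. The 11 tiles held 16 E-boxes. Near Rpap2 there were 3, at 158, 166 and 305 bp from the highest depth. The E-boxes near Cnnm1 and Tmed11 were at 81 and 109 bp, and that of the CpG-poor tile near Adra1a was at 83 bp. An E-box lay within 200 bp of the highest depth in 6 of the 11 tiles, and the most distant was at 615 bp, near Bcl2l11. In the 300 bp around the highest depth the share was 9.30% (4 of 43), against 19.7% of TSS tiles. Read in the same way it was 3.96% in tiles of Santa Cruz alone and 4.14% in those of Abcam alone. It was 14.7% in the 388 distal tiles with Input above 2, and 2.77% at the centres of all distal tiles. In the 31 of the 43 tiles below 6 times the mean it was 3.23%. An E-box lay in 4 of the 7 CpG-rich tiles and in 7 of the other 36. The E2F-like site was found in 2 tiles (4.65%, against 17.1% of TSS tiles and 1.64% of all distal tiles). In the tile near Tmed11 it lay 5 bp from the highest depth. The T-box element was found in 1 tile, near Kcnrg at 96 bp (2.33%, against 3.75% of all distal tiles). The letters CGNGGGCG were found in 1 tile (2.33%, against 27.6% of TSS tiles and 0.462% of all distal tiles), near A830005F24Rik at 655 bp from the highest depth. A match says only that the letters are present.

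**Figure D5:**
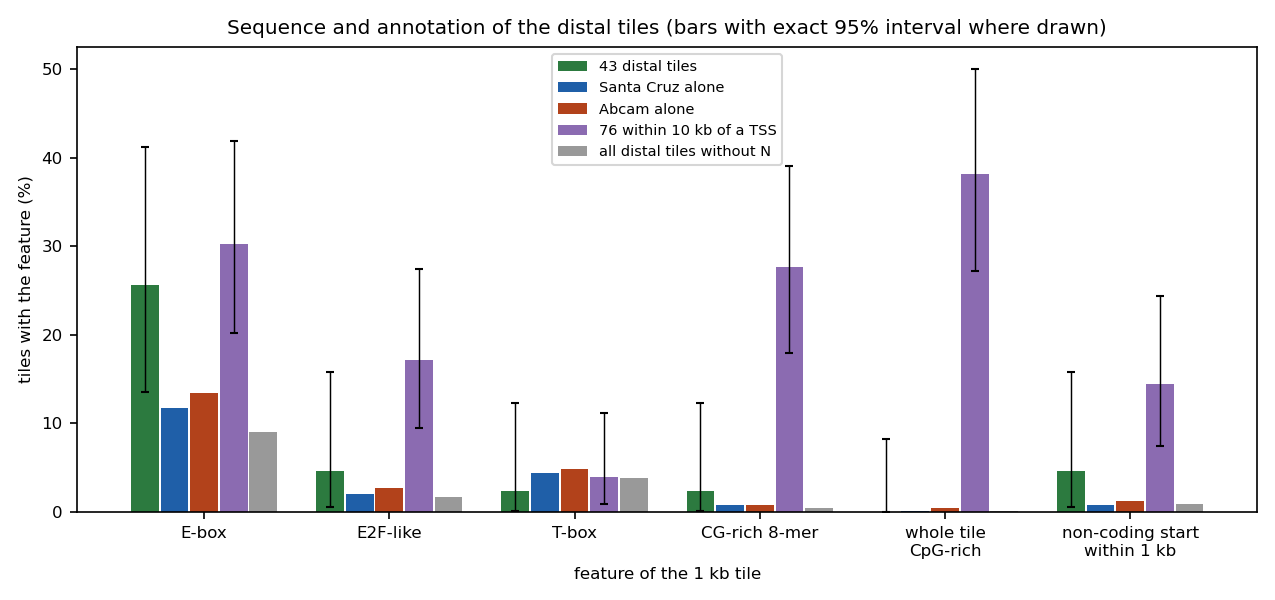
Share of tiles (%) that hold each motif, are CpG-rich over the whole tile or lie within 1 kb of a non-coding start, for the 43 distal tiles, the single-antibody distal tiles, the 76 TSS tiles and all distal tiles. Error bars are exact 95% intervals, drawn for the 43 and the 76, and the CG-rich 8-mer is CGNGGGCG. The E-box bar of the distal tiles stands close to that of the TSS tiles, while the bars of the CG-rich 8-mer and of CpG-rich tiles do not.

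Non-coding starts were looked up in both annotations. By GENCODE, 0 of 43 tiles held the start of a long non-coding or small RNA (an exact upper limit of 8.22%), against 0.286% of all distal tiles and 5.26% of TSS tiles. Within 1 kb of the tile there were 2 (4.65%, against 0.819% and 14.5%), namely Gm17717 beside the Rpap2 tile and Dleu2 beside the Kcnrg tile. By RefSeq, whose starts were placed in mm9 by sequence and could be looked up for 41 tiles, 1 tile held a lncRNA start (2.44%, against 0.345% of all distal tiles). This was 4930487H11Rik, at 62841306 within Nrp2, a neuropilin receptor gene, and 203 bp from the highest depth. A further RefSeq lncRNA start, Gm31585, lay outside the CpG-rich tile near Cstad, 1003 bp from its highest depth. Another, Gm52738, lay 1401 bp from the highest depth of the CpG-poor tile near Tmem38b. These were the 3 tiles with such a start within 2000 bp of the highest depth. The share of all distal tiles at that distance was not computed. The Nrp2 tile, chr1:62841001-62842000, had 5.76 and 5.74 times the mean with Santa Cruz, 5.63 and 5.40 times with Abcam and 1.88 times in Input, and was CpG-poor (6 CpG in 300 bp). A RefSeq protein-coding start lay in 1 of the 41 (Rnf212, 2.44%, against 0.0316% of all distal tiles and 18.7% of TSS tiles). Pseudogene starts were in 0 of 43.

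As the genome sequence carried no repeat mask, the share of 32-base words that occur more than once in the assembly was used, which misses diverged copies of repeats. In 26 of 43 tiles every word was unique, and the median share was 0%, against 3.0% in a regular sample of 3738 distal tiles. The median was also low, at 0.25%, in the 388 distal tiles with Input above 2. Of the single-antibody tiles only 57 (Santa Cruz, median 0.7%) and 48 (Abcam, 1.05%) were looked up, and not as a regular sample. A low share was thus also seen in other tiles chosen by depth, and the part of the depth rule in it was not tested. Only 2 of the 43 tiles were at 10% or more, of which the Stmn2 tile was the higher at 44.0%. Neither was CpG-rich at the highest depth.

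The nearest protein-coding TSS by GENCODE lay 10291 to 519364 bp from the tile (median 38510 bp, against 83593 bp over all distal tiles). The median distance was also below that of all distal tiles in tiles of Santa Cruz alone (50683 bp) and Abcam alone (49890 bp). In the distal tiles with Input above 2 it was 40013.5 bp. A shorter distance than in all distal tiles was thus not particular to the tiles described here. Their nearest GENCODE TSS was within 20 kb for 12 tiles, between 20 and 100 kb for 21 and beyond 100 kb for 10. A RefSeq start was nearer for some tiles, such as those near Rpap2 and Epb4.1l2. Of all 21281 protein-coding genes on autosomes, 0.202% were nearest to a distal tile, 0.446% had a TSS within 100 kb of one and 0.348% were nearest to a TSS tile, so lists of this size hold few or none at the background share. Of 14 PRC1.6 subunit genes, 1 (Mga) was the nearest gene of a distal tile, and Hdac2 and Tfdp1 were nearest to TSS tiles. Of 32 germ cell genes on the list (29 found on autosomes), 0 were nearest to a distal tile and 0 had a TSS within 100 kb of one. Ddx4, Piwil2, Spo11, Sycp2 and Tdrkh were nearest to TSS tiles. Zfp541, Rnf212 and Hfm1 are germ cell genes by general knowledge but were not on the list. Of 25 pluripotency genes (23 found on autosomes), 0 were nearest to a distal tile and 1 (Lin28b) to a TSS tile.

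Chromatin depth itself was not even over the places where the tiles lay. Input was at or above the autosomal mean in 38 of 43 tiles and at 1.5 times or more in 29. Of the 76 TSS tiles, 74 and 49 were so. Median Input was 1.43 times in tiles of Santa Cruz alone and 1.48 times in those of Abcam alone, against 0.746 times over all distal tiles. In the 500 kb on either side, leaving out 10 kb around the tile, Input was above the mean for 35 of 43, with a median of 1.40 times (range 0.369 to 2.29). Chromosome 6 carried 10 of the 43 tiles (23.3%, against 6.08% of distal tiles), none of them CpG-rich, and its depth was 1.23 times the autosomal mean in Input and 1.24 to 1.25 times in ChIP. Chromosome 11, at 1.38 times in Input, carried 1. The part of regional depth in the choice of these tiles was not tested.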

How the data were processed

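Pcgf6 ChIP-seq was analysed in CCE ESCs from 5 libraries, 2 files with each of 2 antibodies and 1 Input. The values deposited by the authors are a coverage signal on mm9 that counts, at each base, the reads lengthened to 300 bp, not scaled to library size and not divided by Input. The submitters' processing notes name Bowtie (version 0.1.2.7), and its role and settings are not given in the sources used here. Depth was averaged in 1 kb tiles and divided by the autosomal mean of the file (all bases of NCBIM37). TSSs were the starts of all transcripts of protein-coding genes in GENCODE vM1.

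Each rise of the coverage was matched to the fall 300 bp on to place the fragments, with 0.261% to 0.338% of falls unmatched in ChIP and 2.47% in Input, and the step was tested on simulated data. The files of an antibody were joined with 1 fragment per position for fragment counts (2504331 Santa Cruz, 3088962 Abcam, 21611066 Input), and ChIP to Input ratios were scaled by these totals. Intervals are exact Clopper-Pearson 95% intervals and cover counting error only, since reads without molecular identifiers are not independent molecules. No test was run, because the depth chose the members and each antibody gave 1 sample. RefSeq starts (30154 of 32851) were placed in mm9 by a unique 32-base word around the start, and starts on chromosome 18 were not analysed here. The sequences of the tiles are not reported here. The sequence held no repeat mask, so the planned repeat-masked share was replaced by the share of 32-base words that recur in the assembly.

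Members, gene lists and motifs were chosen with earlier results of these data known. The tiles named in full were the 10 with the highest value of their lowest ChIP ratio, those holding a non-coding start or nearest to a listed gene, and the 3 nearest to the threshold on either side. Others are marked as named after their values were seen. The 300 bp and centred windows were also chosen after seeing the data. Alternatives covered the ChIP and Input thresholds, the TSS distance and set, the tile grid, the mean, joined replicates, each file left out, and the motif window. Python 3.11.15, numpy 2.4.6, pandas 2.3.3, scipy 1.17.1, numba 0.67.0, pysam 0.24.0 and matplotlib 3.10.9 were used.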

Additional observations from a re-analysis of the deposited data

How the results depend on the processing

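The number of tiles followed the thresholds. It was 347 at 4 times the mean and 12 at 6 times, 14 with an Input limit of 1.5 times and 142 with 3 times, and 65 with replicates joined, of which 26 were among the 43 (all 7 CpG-rich tiles and 19 of the other 36). Leaving out 1 file gave 52 (without Santa Cruz replicate 2) to 66 tiles (without Abcam replicate 1), with all 43 kept by construction. It stayed within 1.5 times for the other distances, the shifted grid (38), the mean without N (37, of which 35 were shared) and protein-coding transcripts alone (46). The median CpG observed/expected ratio was 0.3433 at 6 times the mean and 0.1877 with the Input limit of 1.5 times, and the median share of recurring 32-base words was 0.35% with that limit and 0.8% on the shifted grid. Leave-one-out medians ran from 0.2065 to 0.2541 for CpG and were 0% for recurring words. When only the central 400 bp were searched, the E-box share fell from 25.6% to 16.3% and CGNGGGCG was in 0% of tiles. In every alternative run, the median CpG ratio stayed above that of all distal tiles (0.154). The medians of the tiles of Santa Cruz alone (0.178) and Abcam alone (0.187) also lay above it. The cause was not tested. At this ChIP depth a tile could hold as few as 4 fragments (Santa Cruz) or 5 (Abcam), so membership near the threshold can turn on a single fragment. No paired analysis was possible because the replicate files of an antibody share their fragments and no test was run.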

Other observations

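Although the files of an antibody share most fragments, the depth of single tiles differed between them. The tile near Cdh8 had 9.14 times the mean in Abcam replicate 1 and 5.32 times in replicate 2, and 6.62 and 8.62 times in the Santa Cruz files. The tile near Numbl had 5.52 and 7.69 times with Santa Cruz. Both tiles were named after their values were seen. The lowest of the 4 ratios was set by Santa Cruz replicate 2 in 16 tiles, Abcam replicate 2 in 15, Santa Cruz replicate 1 in 8 and Abcam replicate 1 in 4.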
